A study of Mus musculus with 2 samples.

Results

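Chemokines and their receptors were examined in red pulp macrophages sorted from mouse spleen. The members were all genes whose symbol begins with Ccl, Ccr, Cxcl, Cxcr, Cx3cl, Cx3cr, Xcl or Ackr followed by a number, named through the transcript accession of their probe. They came to 56 genes, 34 ligands and 22 receptors, of 20642 genes with a named probe. Another 10 genes of the annotation fit the rule but had no probe named through their accession and were not analysed here, among them Cxcl11, Ccl27b and the Ccl21 genes.

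The groups were SIRPα-KO mice, which lack the inhibitory myeloid receptor SIRPα, and WT mice. For each genotype the F4/80-positive, CD11b-low cells of 5 mice were pooled before RNA extraction and read on 1 array of 1 colour. The sources used here do not state age, strain background or how the Sirpa allele was disrupted. Spleens of both genotypes were digested with collagenase and DNase, red cells were lysed, and globin transcripts were depleted from the RNA. With 1 array per genotype no test across animals was possible, and no difference below has a replicate check. Because RNA came from a sorted bulk population, fewer cells of a type and less RNA per cell cannot be told apart.

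Chemokines are small secreted proteins that guide leukocytes along concentration gradients. They act through receptors with several membrane-spanning helices that signal through inhibitory G proteins. The ligands are classed by the spacing of their first cysteines as CC, CXC, CX3C or XC. Inflammatory ligands are induced in macrophages by microbial products and cytokines, whereas homeostatic ligands such as Ccl19 and Cxcl13 organise lymphoid tissue, including the white pulp of the spleen. Atypical receptors, named Ackr, bind chemokines and remove them without signalling through G proteins.

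The targeted gene was read first. The single named probe of Sirpa had a signal of 1006 on the array labelled SIRPα-KO and 795 on the WT array, 1.42-fold higher after scaling (0.51 ± 0.20 on the log2 scale). The signal did not bear out the label, but no source here places this probe inside or outside the disrupted stretch, and outside it the probe would check nothing. Directions therefore follow the labels alone. Levels are processed signals, in the scanner's linear units. Differences are log2 values, the array labelled SIRPα-KO less the WT array, after each array was divided by its 75th percentile of signal (89.1 and 100.2). The value after ± is the software's spot error, which covers spot measurement only. A probe counted as detected when the software marked it as well above background. Where 1 array was dim, the difference is the smallest size that the array's detection limit allows and is written "at least".

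Markers were read beside the sort, and its purity was not tested. Of 10 red pulp macrophage markers, 9 were detected on both arrays, with a median difference of 0.07 (5 above 0 and 4 below). The probe of Mertk, an apoptotic-cell receptor, was not detected on either. Adgre1, which encodes F4/80, had a signal of 10406 on the array labelled SIRPα-KO and 6830 on the WT array. Itgam, which encodes CD11b, had 16619 and 11027 in the same order of arrays. It thus read above Adgre1 on both arrays, although the sort took CD11b-low cells.

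Among the ligands, the array labelled SIRPα-KO was far lower in Cxcl10, followed by Ccl3, Ccl4, Ccl5 and 1 probe of Ccl19. Of the 34 ligands, 21 were detected on both arrays, 4 only on the WT array, 1 only on the array labelled SIRPα-KO and 8 on neither. Among the 21 read on both, 5 (23.8%) were lower by 2-fold or more and 0 were higher by as much. With the 5 read on a single array included, the shares were 19.2% and 0.0% of 26, against 5.49% and 3.11% of 15835 detected genes. Over ligands and receptors together, 6 of 44 were lower and 2 higher, against 8.59% of all detected genes apart in either direction. Of all detected genes 869 were lower and 492 higher, a split that quantile normalization moved to 728 and 678. The median difference of the 21 ligands was -0.32, against -0.08 over 14156 genes detected on both arrays, and 16 of them lay below 0 (76.2%, against 56.4%). Of the 21, 8 were lower and 1 higher by over 2 times the spot error. Many genes passed this limit, 2714 lower and 2214 higher of the 14156. After normexp the median of the 26 detected ligands was -0.04, against -0.35 as scaled here and -0.01 for all genes after normexp.

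**Figure D1:**
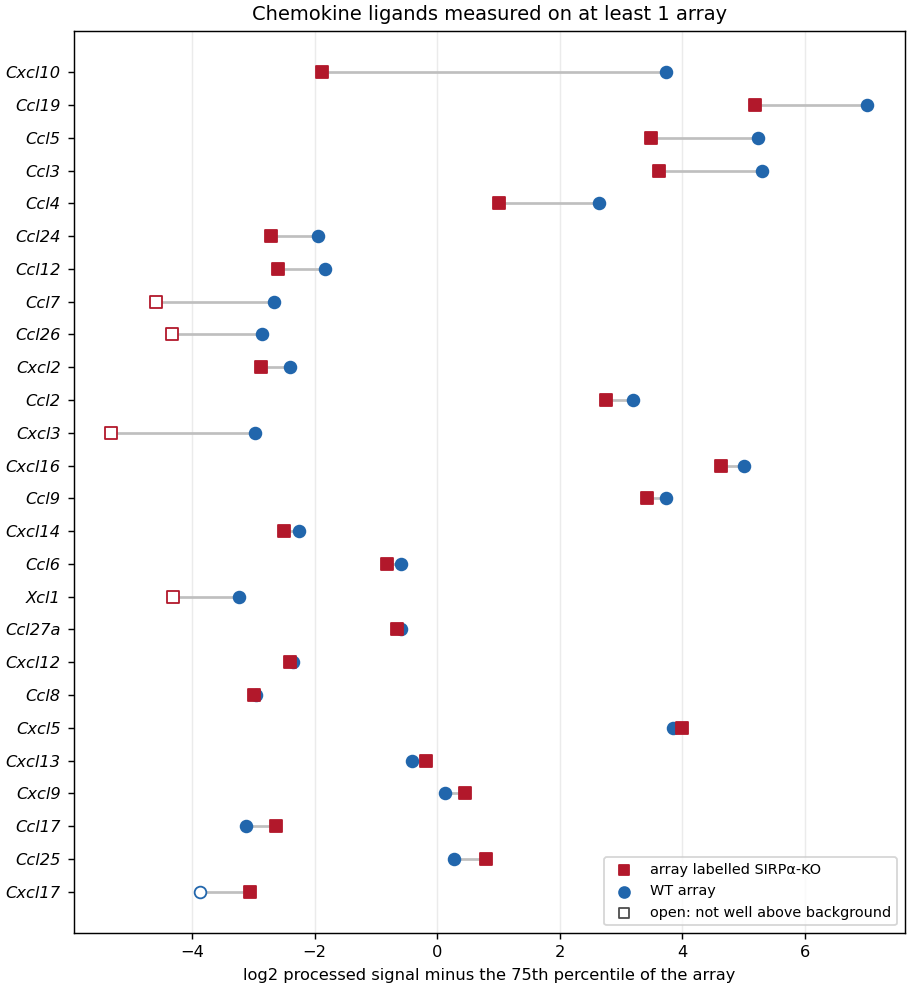
Levels of 26 chemokine ligands, as log2 processed signal minus the array's 75th percentile, ordered from the lowest difference at the top. Red squares are the array labelled SIRPα-KO and blue circles the WT array (1 array each), and open symbols were not well above background. Among ligands detected on both arrays, Cxcl10 has the widest gap and Ccl19, Ccl5, Ccl3 and Ccl4 come next. Ligands dim on 1 array, such as Cxcl3 and Ccl7, are drawn at their own signals but ordered by their smallest size.

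Cxcl10 and Cxcl9 encode ligands of CXCR3, a receptor of activated T cells and NK cells. Both are known as interferon-induced chemokines. Cxcl10 (NM_021274) had a signal of 24.3 on the array labelled SIRPα-KO and 1339 on the WT array, a difference of -5.62 ± 0.24, or 49.1-fold lower. This was the lowest of all 14156 differences read on both arrays. The raw spot lay in the same direction. Its pixel median was 61.5 over a local background of 20.5 on the array labelled SIRPα-KO, and 1327 over 17.0 on the WT array. After normexp background correction with an offset of 50 the difference of Cxcl10 was -3.80. Cxcl9 (NM_008599) did not share the gap, with signals of 122 and 109 and a difference of 0.33 ± 0.21. Its further probe was not detected on either array. Cxcr3, their receptor, had 15.7 on the array labelled SIRPα-KO and 25.9 on the WT array (-0.55 ± 0.32), less than 2 times its error. On chromosome 5, 1 annotated gene lies between Cxcl9 and Cxcl10.

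The upstream sequences of Cxcl10, Cxcl9, Ccl19 and Ccl3 are shown to set the ligand with the lowest value beside its neighbour and beside 2 other ligands with low values. For Ccl4 and Ccl5, also low, no upstream sequence was at hand. Each is the 250 bases before the gene start, 5′ to 3′ on the gene's strand, from RefSeq (build GRCm38.p6, minus strand for all of them). They lie at chr5:92348890-92349139 for Cxcl10, chr5:92328080-92328329 for Cxcl9, chr4:42756366-42756615 for Ccl19 and chr11:83649379-83649628 for Ccl3. Capitals mark matches, on either strand, to letters typical of 3 factor families: GGG, any 3 bases, then TTCC for NF-κB; GAAA, any 2 bases, then GAAA for the interferon-stimulated response element (ISRE); and TGANTCA for AP-1.
Cxcl10: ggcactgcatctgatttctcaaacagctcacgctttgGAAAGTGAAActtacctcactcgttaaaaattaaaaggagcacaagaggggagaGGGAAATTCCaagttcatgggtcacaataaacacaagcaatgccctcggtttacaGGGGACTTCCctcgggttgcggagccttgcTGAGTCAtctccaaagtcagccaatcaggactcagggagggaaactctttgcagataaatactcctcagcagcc
Cxcl9: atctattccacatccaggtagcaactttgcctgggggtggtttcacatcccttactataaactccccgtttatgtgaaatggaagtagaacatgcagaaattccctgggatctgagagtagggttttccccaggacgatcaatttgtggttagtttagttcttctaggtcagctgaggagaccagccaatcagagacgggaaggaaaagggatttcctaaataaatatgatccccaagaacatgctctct
Ccl19: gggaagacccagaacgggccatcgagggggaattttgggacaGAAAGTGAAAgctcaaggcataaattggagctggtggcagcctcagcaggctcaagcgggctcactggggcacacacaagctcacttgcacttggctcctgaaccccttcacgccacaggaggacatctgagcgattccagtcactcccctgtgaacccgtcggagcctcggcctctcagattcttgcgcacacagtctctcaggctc
Ccl3: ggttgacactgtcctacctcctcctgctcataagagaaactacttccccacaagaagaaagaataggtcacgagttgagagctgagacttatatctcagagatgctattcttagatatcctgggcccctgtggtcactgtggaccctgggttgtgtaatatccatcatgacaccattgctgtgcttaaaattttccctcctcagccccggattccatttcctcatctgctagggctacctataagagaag

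Among the 42 member genes with a promoter, Cxcl10 was the 1 that held all 3 kinds of match within this window. How many of all 32851 promoters hold all 3 was not counted, so how rare this is remains unknown. The ISRE-type match stood 213 bases before the start, the NF-κB-type matches GGGAAATTCC and GGGGACTTCC at 159 and 104 bases, and the AP-1-type match at 74 bases. Ccl19 held the same ISRE-type letters, GAAAGTGAAA, at 208 bases. Cxcl9 and Ccl3 held no match in this window. NF-κB-type letters were in 7 of 27 ligand promoters (25.9%) and 2 of 19 receptor promoters (10.5%), against 4.65% of all 32851 promoters. ISRE-type letters were in 3 of 27 (11.1%) and 0 of 19, against 2.98%, and AP-1-type letters in 3 of 27 (11.1%) and 2 of 19 (10.5%), against 6.75%. Cxcl1, Cxcl2 and Cxcl3, members of 1 cluster, held GGGAATTTCC at 71, 97 and 73 bases before the start. Cxcl1 was not detected on either array, Cxcl2 differed by -0.48, and the bound of Cxcl3 was -0.43. Matches that overlap, as in these genes, counted once per promoter. A total of 42 member genes had a promoter in the table, in 46 entries. Ccl4 and Ccl5 had none and were not searched. A match is a description of letters.

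Inflammatory CC ligands, which draw monocytes, T cells and eosinophils, had their lowest values in Ccl3, Ccl4 and Ccl5. Of 10 such genes 7 were detected on both arrays, 2 only on the WT array and Ccl11 on neither. Those detected on both were Ccl2, Ccl3, Ccl4, Ccl5, Ccl8, Ccl12 and Ccl24, and 3 of them were at least 2-fold lower. Ccl3 (NM_011337), which encodes MIP-1α, had a signal of 1095 on the array labelled SIRPα-KO and 3954 on the WT array, 3.21-fold lower (-1.68 ± 0.20). Ccl4 (NM_013652), which encodes MIP-1β, had 178 and 623, 3.11-fold lower (-1.64 ± 0.20). Ccl5 (NM_013653), which encodes RANTES, had 1004 and 3779, 3.35-fold lower (-1.74 ± 0.20). These 3 differences lay within 1 spot error of each other. Each rested on a single probe and a single spot per array.

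The monocyte chemoattractants included the member with the most spots. Ccl2 (NM_011333), the main ligand of CCR2, was printed in 10 spots per array. Its signal ran over these spots from 528 to 669 with a median of 579 on the array labelled SIRPα-KO, and from 824 to 1032 with a median of 910 on the WT array. The spots of the arrays did not overlap. The spot SD was 0.13 on the array labelled SIRPα-KO and 0.12 on the WT array, on the log2 scale. The mean difference was -0.44, and the 10 differences between spots at the same array position ranged from -0.50 to -0.38 (SD 0.05). Other processing moved this value by more than the range of the spots, to -0.15 after quantile normalization, -0.21 in the authors' values and -0.17 after normexp. These spots share 1 RNA pool per genotype, so they measure the spotting and scanning only. Ccl12, another CCR2 ligand of the mouse, had 14.7 on the array labelled SIRPα-KO and 28.1 on the WT array (-0.77 ± 0.29). Ccl24, an eosinophil attractant, had 13.5 and 26.1 (-0.78 ± 0.30). Ccl8 had 11.2 and 12.9 (-0.03 ± 0.39), a difference well inside its error. Ccl7, also a CCR2 ligand, had 3.70 on the array labelled SIRPα-KO, where it was dim, and 15.8 on the WT array, at least 1.68-fold lower. With no filter on dim probes Ccl7 differed by -1.93. Ccl26 likewise had 4.43 and 13.8, at least 1.46-fold lower.

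The other CC ligands of myeloid cells showed smaller gaps. Ccl9, a ligand of CCR1 in the mouse, had 952 on the array labelled SIRPα-KO and 1341 on the WT array (-0.32 ± 0.20). Ccl6, a related macrophage chemokine, had 50.4 and 65.9 (-0.22 ± 0.22). Ccl17, a ligand of CCR4, had 14.4 and 11.5 (0.49 ± 0.35). None of these 3 reached 2 times its error. Ccl1, Ccl20 and Ccl22 were not detected on either array.

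Among homeostatic CC ligands, the probes of Ccl19 disagreed. Ccl19, a ligand of CCR7 made by lymphoid stromal cells and dendritic cells, had 3245 on the array labelled SIRPα-KO and 12915 on the WT array at its highest probe, 3.54-fold lower (-1.82 ± 0.20). Its further probes gave 147 and 160 (0.04 ± 0.21), and 15.7 and 17.8 (-0.01 ± 0.30). The mean over the 3 probes was -0.60, so the value rests on 1 probe. The annotation holds Ccl19 pseudogenes, and signal from such copies cannot be told apart from that of Ccl19 with these files. Of 8 stromal and endothelial markers 6 were detected, with a median of -0.19 and a summed scaled signal of 8.26 on the array labelled SIRPα-KO and 9.98 on the WT array; Emcn was 2.10-fold lower, and Pdgfrb and Cdh5 were not detected on either array. Of 7 conventional dendritic cell markers 5 were detected on both arrays. Flt3 was 2.10-fold lower (4.76-fold at a further probe) and Clec10a at least 2.33-fold higher. The list's median over all 7 was -0.17. Its summed scaled signal was 7.49 on the array labelled SIRPα-KO and 14.2 on the WT array, led by Flt3. The part of these cells in the Ccl19 value was not tested. Ccl25, a gut and thymus chemokine that binds CCR9, had 155 on the array labelled SIRPα-KO and 121 on the WT array (0.53 ± 0.21). A further probe of Ccl25 was not detected on either array. Ccl27a, a skin chemokine, had 56.8 and 66.2 (-0.05 ± 0.21), and its further probes gave 0.01 and -0.25. The probe of Ccl28 was dim on both arrays.

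No CXC ligand read on both arrays other than Cxcl10 was 2-fold apart. Of the neutrophil attractants that bind CXCR2, Cxcl5 had 1426 on the array labelled SIRPα-KO and 1448 on the WT array (0.15 ± 0.20). Cxcl2 had 12.1 and 18.9 (-0.48 ± 0.35). Cxcl3 had 2.24 on the array labelled SIRPα-KO, where it was dim, and 12.7 on the WT array, at least 1.35-fold lower. Cxcl1 and Cxcl15 were not detected on either array. Cxcl13, which draws B cells into follicles, had 78.9 and 74.7 (0.25 ± 0.21), and Cxcl12, the ligand of CXCR4, had 16.9 and 19.6 (-0.04 ± 0.30). Cxcl14, a ligand of epithelia, had 15.7 and 20.9 (-0.24 ± 0.29). Cxcl17 was the single ligand detected only on the array labelled SIRPα-KO, with 10.7 there and 6.84 on the WT array, at least 1.52-fold higher.

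Of the membrane-bound ligands, Cxcl16, which also acts as a scavenger receptor for oxidised lipid, had 2205 on the array labelled SIRPα-KO and 3233 on the WT array (-0.38 ± 0.20). Cx3cl1 was not detected on either array. Xcl1, a lymphocyte ligand, had 4.47 on the array labelled SIRPα-KO, where it was dim, and 10.7 on the WT array, at least 1.13-fold lower.

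**Figure D2:**
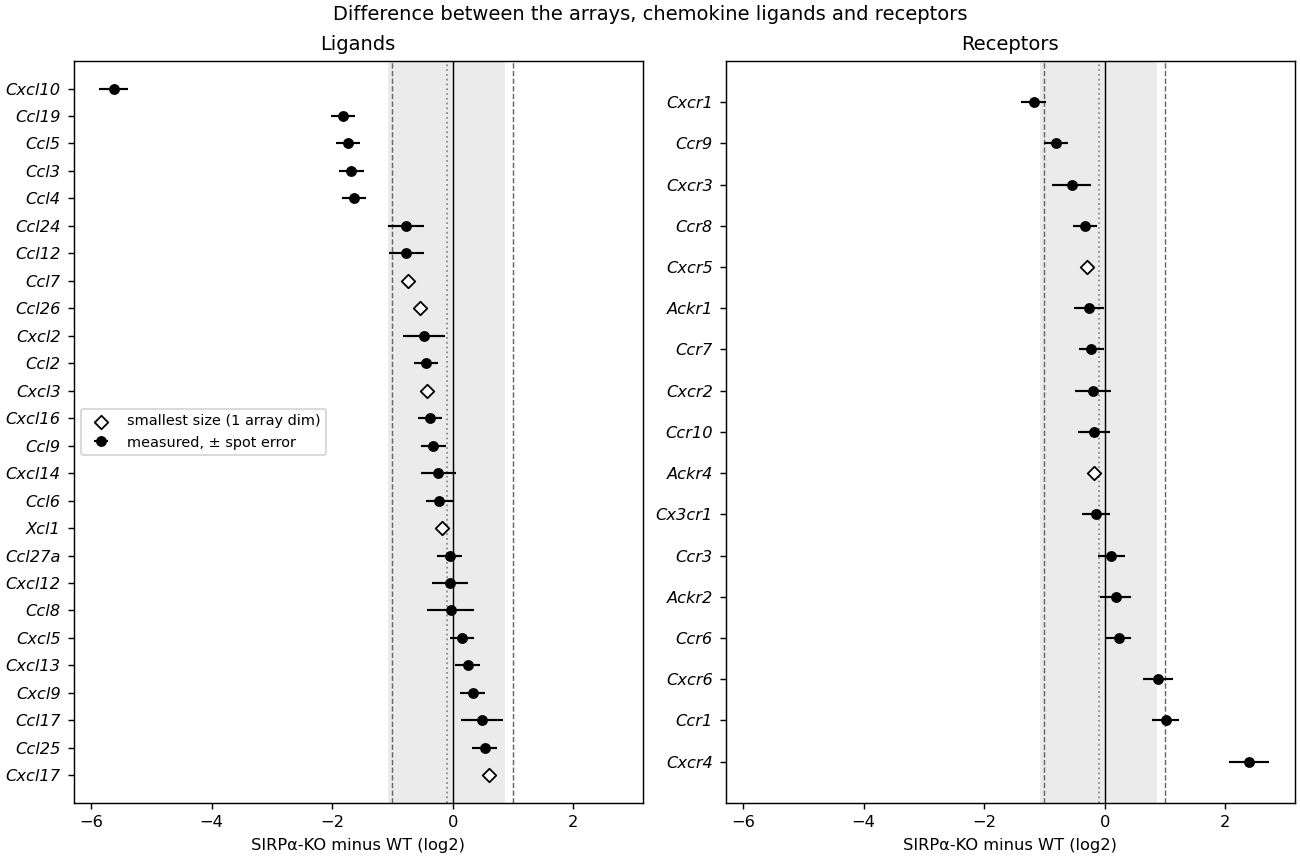
Difference between the array labelled SIRPα-KO and the WT array (log2, x axis) for the ligands (left) and receptors (right) described here. Points carry the spot error, diamonds are smallest sizes where 1 array was dim, dashed lines mark 2-fold, the dotted line is the median of all detected genes (-0.09), and grey spans their 5th to 95th percentiles (-1.06 to 0.85); Cxcl10 (-5.62) and Cxcr4 (2.39) lie farthest out.

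Receptors showed no common direction. Cxcr4 and Ccr1 were higher on the array labelled SIRPα-KO, Cxcr1 was lower, and the other receptors read on both arrays lay within 2-fold. Of the 22 receptors, 15 were detected on both arrays, 3 only on the WT array and 4 on neither. Among the 15, 1 (6.67%) was lower by 2-fold or more and 2 (13.3%) were higher by as much. Over the 18 detected on either array the shares were 5.56% and 11.1%, against 5.49% and 3.11% of all detected genes. The share of lower receptors is thus near that of all genes, and each of these counts rests on 1 or 2 genes. The median of the 15 was -0.18, with 9 below 0.

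**Figure D3:**
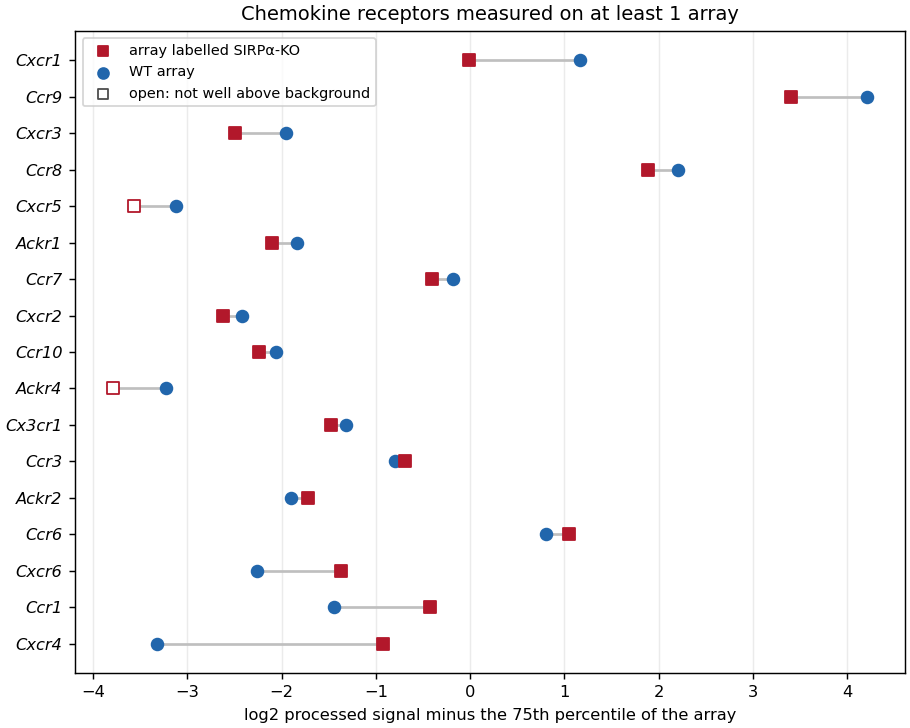
Levels of the chemokine receptors described here, as log2 processed signal minus the array's 75th percentile, ordered from the lowest difference at the top. Red squares are the array labelled SIRPα-KO and blue circles the WT array (1 array each), and open symbols were not well above background; Cxcr1 is at the top with -1.18 and Cxcr4 at the bottom with 2.39.

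Cxcr4 (NM_009911), the CXCL12 receptor that retains leukocytes and their precursors in bone marrow, had a signal of 46.7 on the array labelled SIRPα-KO and 10.0 on the WT array. It was 5.25-fold higher (2.39 ± 0.33), number 15 from the top of the 14156 differences read on both arrays. The WT signal was close to the lowest detected on that array (7.92), so the size of the fold is loosely held. The raw pixel medians were 84.0 over a local background of 21.0 on the array labelled SIRPα-KO and 48.0 over 18.5 on the WT array. After normexp background correction with an offset of 50, which shrinks differences of dim probes, Cxcr4 differed by 0.64. Ccr1 (NM_009912), a receptor for CCL3 and CCL5, had 65.9 on the array labelled SIRPα-KO and 36.9 on the WT array, 2.01-fold higher (1.01 ± 0.22). This lies at the 2-fold limit. The authors' values gave 1.00 and quantile normalization 1.01, whereas cyclic loess (0.99), no scaling (0.84) and normexp (0.46) put it under the limit.

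Cxcr6, the receptor for CXCL16, lay just under that limit with 34.4 on the array labelled SIRPα-KO and 21.0 on the WT array (0.89 ± 0.25). Its further probe read 25.4 and 18.8, in the same direction (0.60 ± 0.28).

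Cxcr1 (NM_178241), which in humans is an interleukin-8 receptor of neutrophils, had 88.7 on the array labelled SIRPα-KO and 226 on the WT array, 2.27-fold lower (-1.18 ± 0.21). After normexp it was -0.80, within 2-fold. Cxcr2, the other receptor of this kind and its direct neighbour on chromosome 1, had 14.5 and 18.7 (-0.20 ± 0.30). Of 8 neutrophil markers, 5 were detected and all of these lay below 0, with a median of -0.19; S100a8 was 2.35-fold lower, with 32.7 on the array labelled SIRPα-KO and 86.2 on the WT array. The summed scaled signal of that list was 442 and 458, nearly all of it from Elane (signals of 39299 and 45722), and Ngp and Mpo were not detected on either array. The part of neutrophils in the Cxcr1 value was not tested. Ccr9, which guides cells to the gut and marks plasmacytoid dendritic cells, had 941 on the array labelled SIRPα-KO and 1853 on the WT array, 1.75-fold lower (-0.81 ± 0.20). Of the 5 markers of that cell type, which include Ccr9 itself, 3 lay below 0 with a median of -0.07, and Siglech had 113603 and 79647 (0.68 ± 0.20). The summed scaled signal of that list was 1288 on the array labelled SIRPα-KO and 816 on the WT array, a sum led by Siglech and opposite in direction to Ccr9.

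The other CC and CXC receptors read on both arrays differed by less than 2 times their error. Ccr7, the receptor for CCL19, had 67.4 on the array labelled SIRPα-KO and 88.3 on the WT array (-0.22 ± 0.21). Ccr8 had 331 and 463 (-0.32 ± 0.20), but its further probe was not detected on either array. Ccr6, a receptor of B cells and dendritic cells, had 184 and 176 (0.23 ± 0.21). Ccr3, the eosinophil receptor, had 55.3 and 57.7 (0.11 ± 0.22), and Ccr10 had 18.9 and 24.1 (-0.18 ± 0.27). Cx3cr1, the fractalkine receptor of monocytes and macrophages, had 32.0 and 40.0 (-0.15 ± 0.23), but its further probe had 22.2 and 17.5 and turned the other way (0.51 ± 0.29). Cxcr5, the CXCL13 receptor, was not read on both. It had 7.48 on the array labelled SIRPα-KO, where it was dim, and 11.5 on the WT array, at least 1.23-fold lower.

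Ccr2, the receptor of classical monocytes, was not detected on either array, with signals of 2.03 on the array labelled SIRPα-KO and 2.31 on the WT array. Ccr4 and Ccr1l1 were dim on both arrays as well. Of the monocyte markers, which include Ccr2, 4 of 6 were detected, with a median of 0.19. The summed scaled signal of the list was 195 on the array labelled SIRPα-KO and 119 on the WT array, led by Itgam.

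The atypical receptors read on both arrays were within 2-fold. Ackr1, which red cells and venules carry, had 20.8 on the array labelled SIRPα-KO and 28.1 on the WT array (-0.26 ± 0.25). Ackr2, which takes up inflammatory CC ligands, had 27.0 and 26.9 (0.18 ± 0.25), but its further probe was not detected on either array. Ackr4, which takes up CCL19, had 6.46 on the array labelled SIRPα-KO, where it was dim, and 10.7 on the WT array, at least 1.13-fold lower. Ackr3, which binds CXCL12, was not detected on either array.

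Ligands and their receptors were set side by side in 32 textbook pairs, of which 20 had both genes detected on 1 array or both. In 10 pairs both genes lay below 0 and in 10 they lay on opposite sides. Of all detected genes, 58.0% lay below 0. Some signs rest on values inside their error (Ccl8 at -0.03, Ccl27a at -0.05) or on bounds, as for Ackr4. Ccl3 and Ccl5, at -1.68 and -1.74, met Ccr1 at 1.01. Cxcl16 at -0.38 met Cxcr6 at 0.89, and Cxcl12 at -0.04 met Cxcr4 at 2.39. Ccl25 at 0.53 met Ccr9 at -0.81. Cxcl10 at -5.62 and Ccl19 at -1.82 met Cxcr3 at -0.55 and Ccr7 at -0.22. Pairs share members, so these counts are a description only.

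Chemokine genes lie in clusters. The size of the difference varied within clusters, and on chromosomes 5 and 9 its direction did too. The CC ligands detected on chromosome 11 all lay below 0. On chromosome 11, Ccl3 and Ccl4 are direct neighbours with no annotated gene between them, and they differed by -1.68 and -1.64. Ccl9 and Ccl6 lie between Ccl5 and Ccl3 in the same cluster, and differed by -0.32 and -0.22, against -1.74 for Ccl5. The run that holds Ccl2, Ccl12 and Ccl8 ends with Ccl1, 52 annotated genes before Ccl5, and these 3 differed by -0.44, -0.77 and -0.03. On chromosome 9, Ccr9 and Cxcr6 are separated by 1 gene and differed by -0.81 and 0.89.

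**Figure D4:**
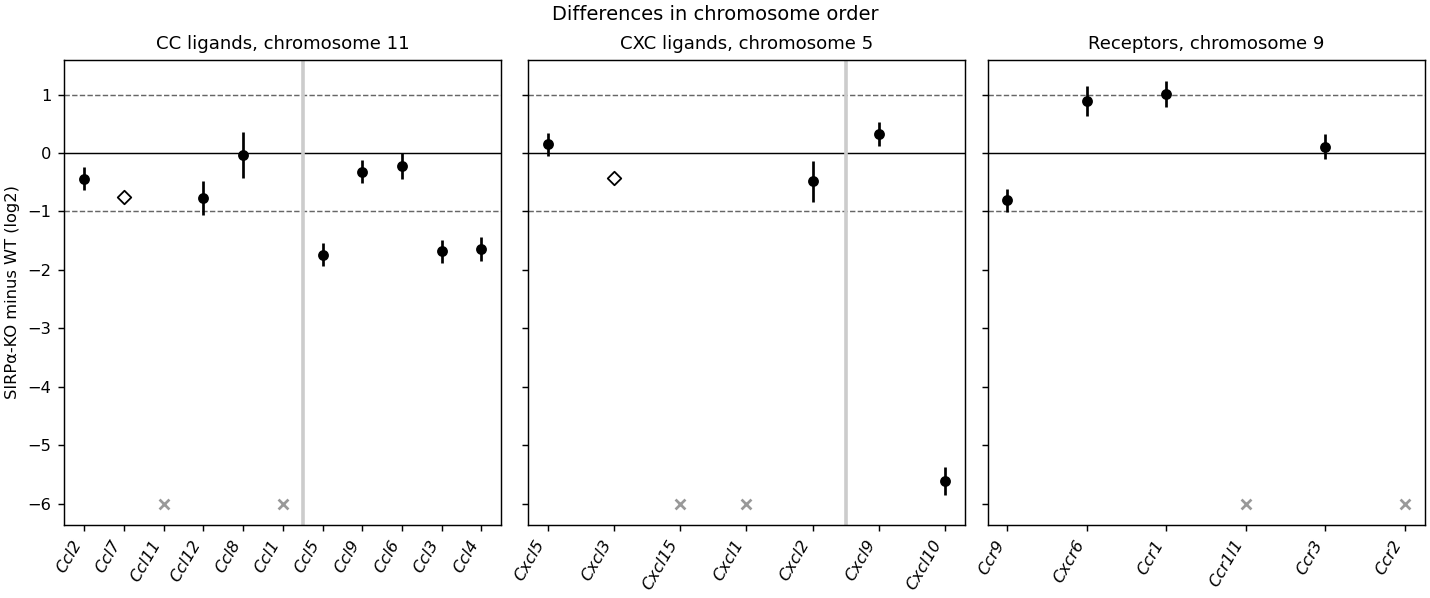
Difference between the array labelled SIRPα-KO and the WT array (log2, y axis) for members in their order along chromosomes 11, 5 and 9, without distances. Points carry the spot error, diamonds are smallest sizes where 1 array was dim, crosses at the bottom mark genes not well above background on either array (no difference), grey bars separate clusters and dashed lines mark 2-fold; Ccl5, Ccl3 and Ccl4 lie below -1 with Ccl9 and Ccl6 between them, and Cxcl10 lies beside Cxcl9.

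Genes that act beside the chemokine system were read from a list of 44, made of related ligands and receptors, G proteins, receptor kinases, arrestins, regulators of G-protein signalling and migration genes. Of these, 32 were detected on both arrays, 4 only on the WT array, 1 only on the array labelled SIRPα-KO and 7 on neither. Among the 37 detected, 3 (8.11%) were lower by 2-fold or more and 0 were higher by as much, against 5.49% and 3.11% of all detected genes. The list's median was 0.17, above the -0.09 of all genes, and 20 of the 37 lay above 0. Rac2, the leukocyte Rac GTPase of cell migration, had 385 on the array labelled SIRPα-KO and 1456 on the WT array over 8 spots, 3.37-fold lower (-1.75 ± 0.20). Grk3, a kinase that desensitises chemokine receptors, had 10.6 and 39.3 over 9 spots, 3.30-fold lower (-1.72 ± 0.34). Its signal on the array labelled SIRPα-KO was close to the lowest detected there (8.37), so the size of this fold is loosely held. Lyn, a Src-family kinase, had 6.53 on the array labelled SIRPα-KO, where it was dim, and 18.8 on the WT array, at least 2.00-fold lower, which is the limit itself. The lower genes were 2 after quantile normalization, after cyclic loess and in the authors' values. Pf4, the platelet CXC chemokine whose symbol falls outside the member rule, had 12448 on the array labelled SIRPα-KO and 12236 on the WT array (0.19 ± 0.20). Gnai2, the inhibitory G-protein subunit of leukocytes, had 5971 and 4959 (0.44 ± 0.20).

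Over the other cell marker lists, medians were -0.06 for 7 B cell markers, -0.09 for the 6 T cell markers with a probe, -0.17 for 5 NK cell markers, 0.19 for 5 platelet and megakaryocyte markers, and 0.43 for the 2 detected of 3 marginal zone and metallophilic macrophage markers. The summed scaled signal of the red pulp macrophage list was 210 on the array labelled SIRPα-KO and 152 on the WT array. In the same order of arrays it was 12.3 and 24.4 for B cells, and 185 and 362 for T cells. Adgre1 and Csf1r led the red pulp macrophage sum, and Cr2 led the B cell sum (signals of 327 and 1547). Cd8b1 led the T cell sum (signals of 10283 and 27895, 1 spot per array). Cd8a, over 10 spots, had 19.9 and 22.2 (0.02 ± 0.28). Of the 6 T cell markers, 4 lay below 0 and 2 above. NK cell markers summed to 7.55 and 8.58, platelet and megakaryocyte markers to 148 and 132, and marginal zone and metallophilic markers to 29.5 and 19.0, with Cd209b not detected on either array. Single genes in them were at least 2-fold apart, namely Cr2 (-2.07, with a further probe at 0.31), Cd8b1 (-1.27) and Gp1ba (1.44), and in the red pulp macrophage list Cd5l (1.46). The part of these cells in the chemokine values was not tested.

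**Figure D5:**
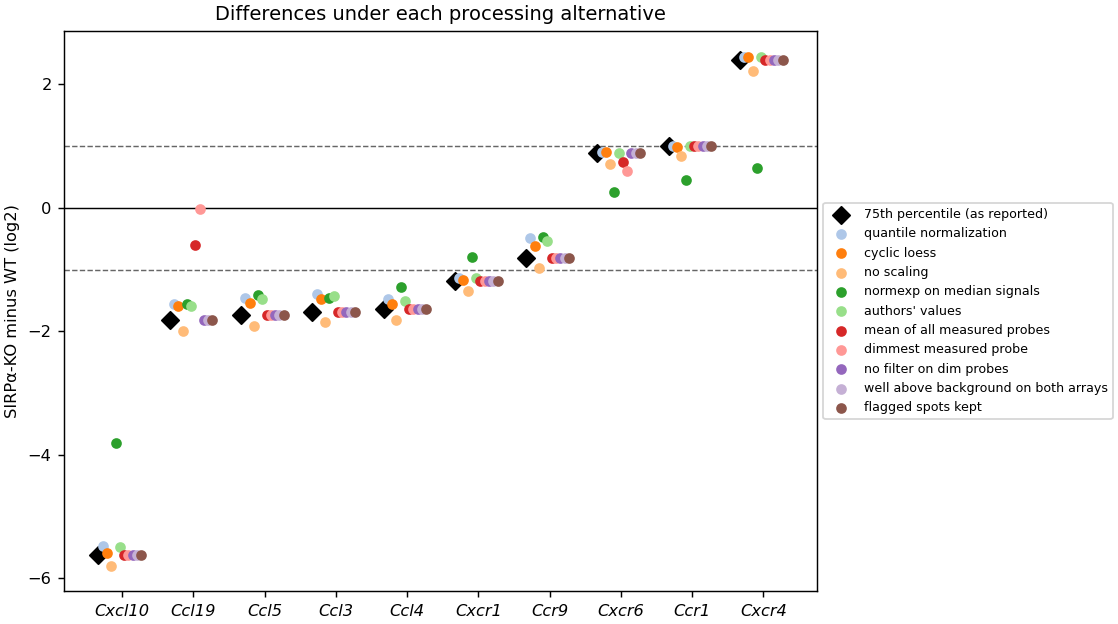
Differences between the array labelled SIRPα-KO and the WT array (log2, y axis) of 10 members under the reported scaling (black diamonds) and 10 processing alternatives (coloured points). Dashed lines mark 2-fold; Ccl3, Ccl4, Ccl5 and Cxcl10 stay below -1 in each, Ccl19 reaches -0.01 at its dimmest probe, Cxcr4 falls below 1 after normexp, and Ccr1 after normexp, cyclic loess and without scaling.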

How the data were processed

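Sorted red pulp macrophages of SIRPα-KO and WT mice were read on 1 array each. The deposited scanner tables hold spot intensity, made with Agilent Feature Extraction 11.0.1.1 on array design 26655, per the file headers, which name the mm9 build. The processed intensity is background-subtracted and spatially detrended by that software. The authors' deposited value table was read as log2 values (median 4.56 on both arrays). The table's order followed the scanner signal, which holds for any rising scale, so order alone cannot show log2. The sources used here do not state its normalization; it served as an alternative.

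Control spots and spots with an outlier flag on either array were left out (321 of 43020), none of them a member's. No spot was saturated. Log2 signals minus each array's 75th percentile were averaged over the spots of a probe, and a gene took its probe with the highest mean signal. Names came from RefSeq transcripts (GRCm38.p6, names only): 27206 of 39386 probes gave 20642 genes, of which 14394 were detected on the array labelled SIRPα-KO and 15589 on the WT array. Both arrays lay on 1 slide. Members detected on 1 array or both are named with values, except 1 that counts in the totals but is not reported here; of the related list, those at least 2-fold apart and the 2 brightest. The number of arrays limits precision. The members, lists and pairs were chosen with earlier results of these data known; the pairs and the grouping of members into families were written after the files were seen. Steps were tested on simulated data. Normalization alternatives used limma 3.58.1 in R 4.3.3, and other steps Python 3.11.15.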

Additional observations from a re-analysis of the deposited data

How the results depend on the processing

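No paired analysis was possible because each genotype had 1 array, and no replicate could be left out. The planned normexp correction on mean signals was not run, since the scanner tables used here give median signals; the same correction on those was chosen after the data were seen. The 5 ligands at least 2-fold lower became 4 with the mean of all probes or the dimmest probe, where Ccl19 drops out, 9 with no filter on dim probes and 8 at 1.5-fold, where 1 ligand was higher in place of 0. The 1 lower receptor became 2 with no filter and at 1.5-fold, and 0 after normexp and at 3-fold. The 2 higher receptors became 1 after cyclic loess, without scaling and at 3-fold, and 0 after normexp. Lower genes of the related list, 3, became 5 without scaling and with no filter, 6 at 1.5-fold, 1 after normexp, and 2 in the authors' values, at 3-fold, with flagged spots kept, over genes read on both arrays, and after cyclic loess or quantile normalization. Higher genes of that list, 0, became 1 after quantile normalization, in the authors' values and with no filter, and 5 at 1.5-fold. The median of the 26 detected ligands, -0.35, became -0.04 after normexp, and ranged from -0.52 without scaling to -0.18 after quantile normalization elsewhere. All genes had a median of -0.26 with no scaling, in place of -0.09.

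Over all detected genes, 869 were at least 2-fold lower and 492 higher. These became 446 and 202 after normexp, 1642 and 877 with no filter, 2154 and 1806 at 1.5-fold, and 374 and 103 at 3-fold, and 1188 and 303 without scaling. Fold limits and filters act by construction; the cause of the normexp changes beyond its offset was not tested. Of the 44 detected members, 19 moved by more than the spot error after normexp, 8 after quantile normalization, 8 in the authors' values, 5 with no filter, 3 after cyclic loess, 3 at the dimmest probe and 2 in the mean of probes. Cxcl10 ranged from -5.79 to -3.80, Ccl3 from -1.85 to -1.39, Ccl4 from -1.81 to -1.28 and Ccl5 from -1.91 to -1.41. Members within 2-fold whose sign turned in 1 or more alternatives were Ccl8, Cxcl12, Cxcl5, Cxcl16, Ccr3, Ccr10 and Cx3cr1, and the bounds of Ackr4 and Xcl1 were 0.00 in the authors' values.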
